A study of Mus musculus with 30 samples.

Results

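Potassium channel genes were followed through 28 mouse cortical tumours and 2 samples of normal cortex. The genes were chosen by name: every gene symbol that starts with Kcn, goes on with letters and ends in a number was taken, which gave 92 of the 24421 genes listed. The symbols Kcnd3os, Kcne1l, Kcnmb4os1, Kcnmb4os2, Kcnq1ot1 and Kcnrg fell outside that pattern. Of the 92 genes, 30 encode voltage-gated pore subunits, 10 silent modifier subunits, 15 inward rectifiers, 14 tandem-pore (K2P) leak channels, 8 channels opened by intracellular calcium, sodium or pH, and 15 auxiliary subunits. A level of at least 1 RPM in at least 3 libraries was reached by 79 of them. The other 13 did not exceed 1.38 RPM in any library. RPM here means reads scaled by a size factor per library, and is not a share of each library's own reads.

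Potassium channels let potassium leave or enter a cell along its gradient, and so set the resting potential and end each action potential. Neurons carry many voltage-gated kinds on axons, dendrites and terminals, with auxiliary subunits that change their gating and position. Astrocytes rely on inward rectifiers of the Kir4 and Kir5 type to take up potassium released by active neurons. Microglia, T cells and dividing cells are known for a smaller set, among them the calcium-activated Kcnn4 and the voltage-gated Kcna3.

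The tumours were collected at postnatal day 70 and labelled glioblastoma. They carried the epidermal growth factor receptor EGFR as wild-type EGFR (3 libraries), A289I (5), A289V (4), R108G (3), R108K (4), R222C (3) or T263P (3), or mCherry in its place as the control (3), and were set against normal cortex without tumour (2). Each library is bulk tissue, and the tumours came from 3 to 5 mice per form. How tumours were started, the promoter of the constructs and the species of the EGFR sequence are not given in the sources used here. Whether libraries came from separate mice is stated for the forms only in that general way, so the p-values measure the spread between libraries.

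Libraries held 2784129 to 24475215 reads. Egfr itself stood at 17.5 to 2790 RPM in the 25 EGFR tumours, at 22.1 to 35.4 RPM in mCherry tumours and at 11.3 to 12.7 RPM in cortex. The low end was a library labelled R108G that lay below the mCherry libraries. All 28 genes of a neuron list were lower in tumours than in cortex, 22 of 22 cell cycle genes and 13 of 15 oligodendrocyte precursor genes were higher, and 11 of 16 microglia and macrophage genes were higher. Of 16 myelin genes 9 were lower. Summed neuron markers were at 612 to 16662 RPM in tumours and at 22543 to 22963 RPM in cortex. In bulk tissue, fewer cells of a type and less RNA per cell cannot be told apart. Rn45s, the ribosomal RNA precursor, took 2.47% to 4.57% of reads in the 12 tumour libraries numbered 20 to 37 and 0.117% to 1.32% in the other 16, against 0.873% to 1.24% in both cortex libraries, which belong to the 20 to 37 range. Its part in the results was not tested, but terms for the number ranges were tried.

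Promoters of members that fell and of members that rose are shown first, since many neuronal channel genes are known targets of REST, a repressor that binds the RE1 element outside neurons. RefSeq promoters on GRCm38.p6, 250 bases before to 50 bases after the start, were matched for 67 of the 92 members. Short letter strings of RE1 were searched on both strands, TCAGCAC for its left part and GGACAGC for its right part, which do not overlap each other. They are in capitals in the sequences below, 5′ to 3′ along the gene. Kcnh6, a pore subunit of the ERG family that fell, held both strings and lies at chr11:106007898-106008197 on the plus strand. Its level was low throughout, at 0 to 2.95 RPM in tumours and 2.24 and 3.11 RPM in cortex. The log2 difference was -1.34 (SE 0.28, limma adjusted p 0.000345), and A289V libraries 1 and 2 (2.49 and 2.95 RPM) lay within the cortex range. Kcnj4, the inward rectifier Kir2.3 that fell, held the right string and lies at chr15:79505192-79505491 on the minus strand. Kcnn4 at chr7:24370013-24370312 and Kcnj10 at chr1:172340960-172341259, both on the plus strand and both higher in tumours, held neither. Of the 2 promoters listed for Kcnk10, which was higher as well, 1 held the right string. The promoters of Kcnc1 and Kcnf1, which fell, held neither. That of Kcnk4, which fell too, held both on the opposite strand and farther apart than in Kcnh6. Read along that strand, the right string came before the left, the reverse of the order in Kcnh6. The search did not ask for a set spacing or order of the strings.
Kcnh6: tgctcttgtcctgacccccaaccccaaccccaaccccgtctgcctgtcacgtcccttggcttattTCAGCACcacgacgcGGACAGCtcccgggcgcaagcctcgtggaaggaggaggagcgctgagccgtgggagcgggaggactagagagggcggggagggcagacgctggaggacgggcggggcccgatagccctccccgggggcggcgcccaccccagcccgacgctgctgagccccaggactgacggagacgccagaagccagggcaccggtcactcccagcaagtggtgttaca
Kcnj4: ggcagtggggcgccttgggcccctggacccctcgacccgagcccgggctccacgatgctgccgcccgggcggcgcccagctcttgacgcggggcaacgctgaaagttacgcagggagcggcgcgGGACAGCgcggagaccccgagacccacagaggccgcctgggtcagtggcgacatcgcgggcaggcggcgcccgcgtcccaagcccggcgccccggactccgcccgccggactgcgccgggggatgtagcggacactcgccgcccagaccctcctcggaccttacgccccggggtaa
Kcnn4: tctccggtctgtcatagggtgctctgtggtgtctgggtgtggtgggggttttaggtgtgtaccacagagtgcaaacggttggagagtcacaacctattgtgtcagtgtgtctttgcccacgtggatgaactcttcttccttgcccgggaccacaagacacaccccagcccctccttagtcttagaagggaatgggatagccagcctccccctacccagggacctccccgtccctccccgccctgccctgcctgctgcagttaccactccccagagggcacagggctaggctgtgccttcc
Kcnj10: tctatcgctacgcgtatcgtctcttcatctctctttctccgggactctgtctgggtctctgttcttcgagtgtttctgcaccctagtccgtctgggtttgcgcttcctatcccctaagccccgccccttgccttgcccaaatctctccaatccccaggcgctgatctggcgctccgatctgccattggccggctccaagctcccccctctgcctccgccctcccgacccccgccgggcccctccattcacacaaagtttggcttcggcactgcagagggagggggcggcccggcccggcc

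Promoters were matched for 32 of the 48 members that fell, some with more than 1, so the shares here are of promoters and not of genes. Over all 44 promoters of members that fell, the left string was present in 3 (6.82%) and the right string in 5 (11.4%). Among the 33 promoters of members that were not called, 1 held the left (3.03%) and 4 the right string (12.1%), and of the 4 promoters of members that rose, none and 1. Among the 15087 promoters of all genes tested the shares were 4.61% and 7.67%, and among those of all genes lower in tumours 5.61% and 8.14%. The right string was thus at a similar share in members that fell and in members not called. A match is a string of letters and no binding site. Promoters of the members that fell held a median of 12.5 CG pairs, those of members that rose also 12.5 and those of members not called 9, against 18 for all genes lower in tumours and 19 for all genes tested.

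Most potassium channel genes were lower in tumours than in cortex. With the 8 tumour groups weighed equally, 48 of 79 tested members were lower (limma, Benjamini-Hochberg adjusted p under 0.05), where 24.5% of all 15824 genes tested were lower. Only 5 members were higher, where 22.9% of all genes were, and 26 did not pass the test. In either direction 47.4% of all genes passed. The median log2 difference was -1.64 over the members and 0.03 over all genes. For 27 of the 48 the highest tumour library lay below both cortex libraries, and for 1 of the 5, Kcnk6, the lowest tumour library lay above both. The share of all genes that lay apart in this way was not counted, for this comparison or those below.

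**Figure D1:**
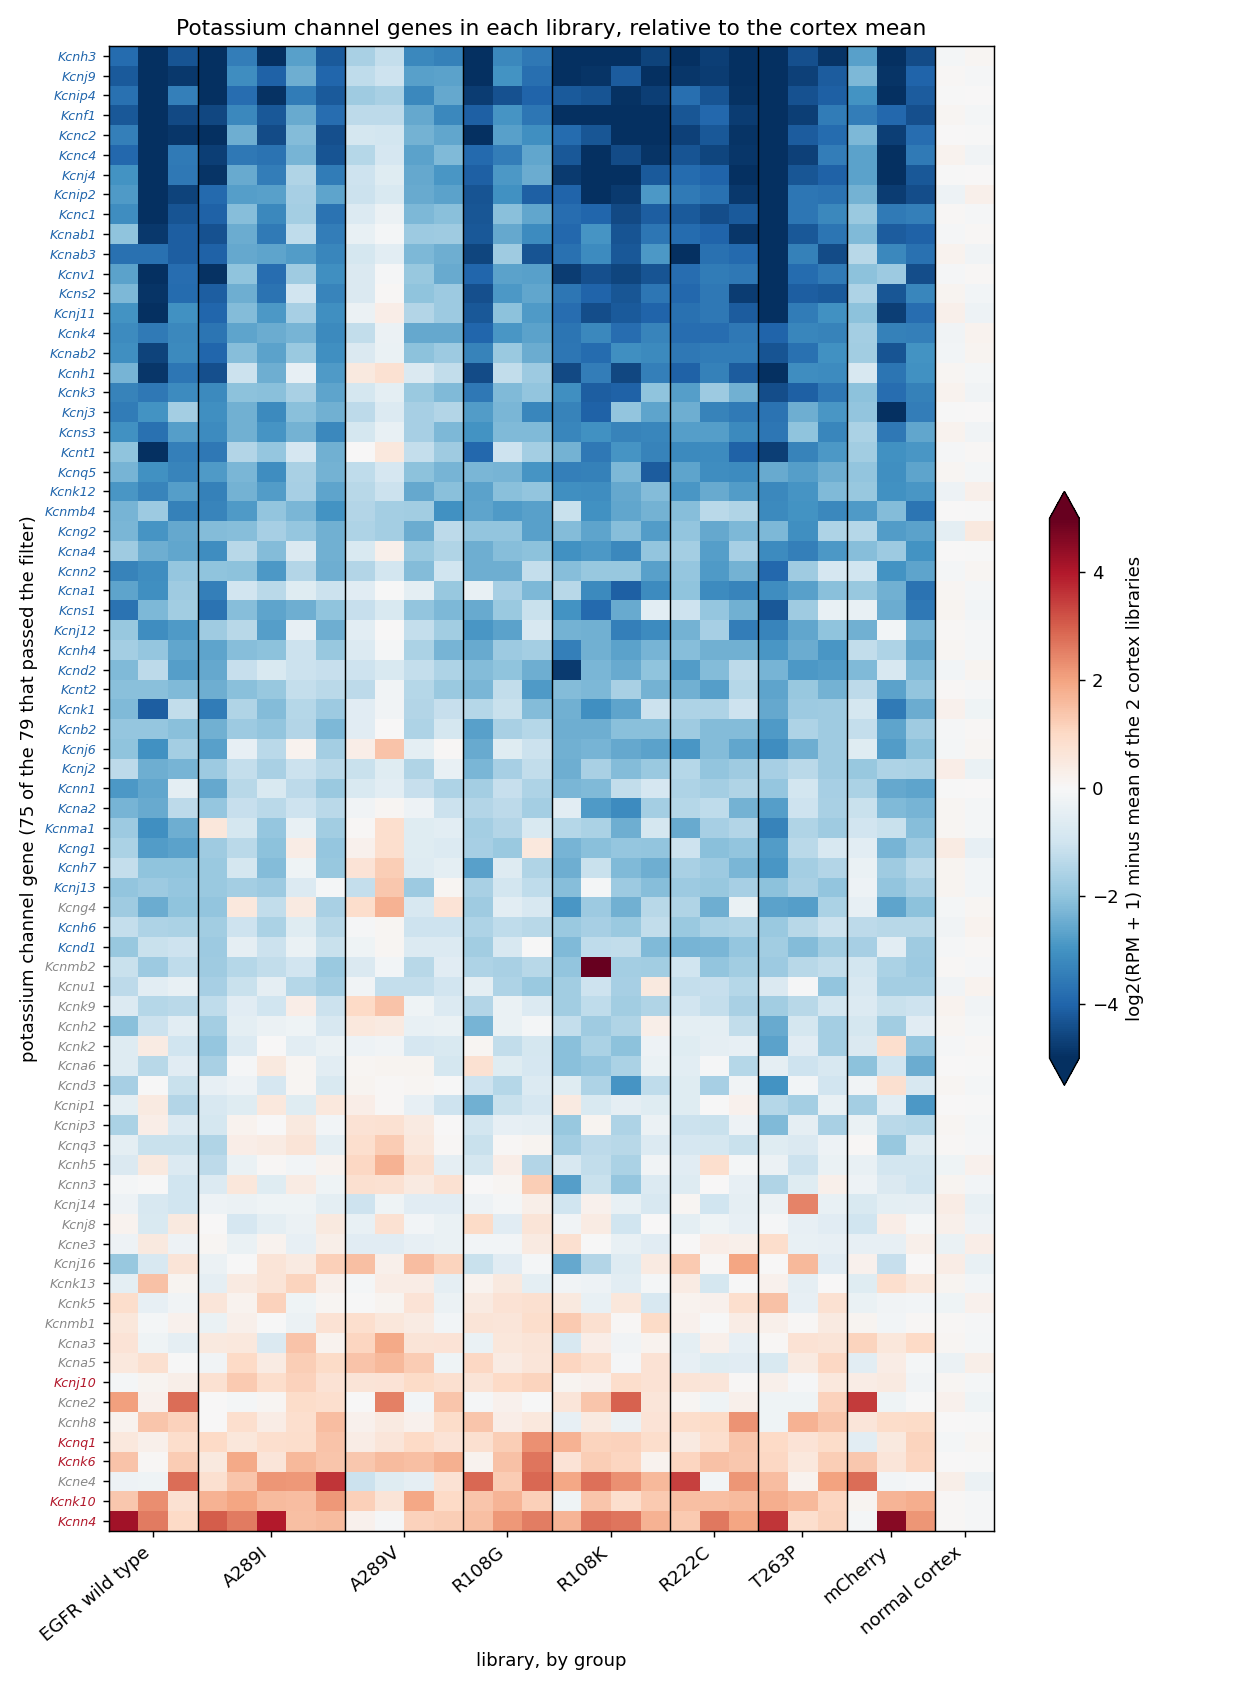
Log2(RPM + 1) of 75 of the 79 tested genes in each library minus the mean of the 2 cortex libraries, with genes ordered by the tumour minus cortex difference and libraries by group. Names in blue were lower in tumours (45), names in grey were not called (25) and names in red were higher (5), and A289V libraries 1 and 2 are the palest of the tumour columns in the upper rows.

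Of the 28 pore subunits of voltage-gated channels tested, 18 were lower and 1 was higher. The Kv3 genes Kcnc1, Kcnc2 and Kcnc4, whose channels allow fast-spiking neurons to fire at high rates, were lower. Kcnc1 stood at 0.62 to 146 RPM in tumours (median 14.0) and at 185 and 170 RPM in cortex, a log2 difference of -3.40 (SE 0.69, adjusted p 0.000284). Kcnc2 stood at 0.248 to 55.0 RPM (median 4.62) in tumours, against 104 and 102 RPM in cortex, and fell by 3.94 on the log2 scale (SE 0.76, adjusted p 0.000173). Kcnc4 fell by 3.90 (SE 0.64, adjusted p 3.39e-05), at 0.186 to 67.6 RPM in tumours and 135 and 107.7 RPM in cortex. No tumour library reached the cortex level for any of these 3 genes.

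The ether-à-go-go group (Kv10 to Kv12) had 5 of 8 members lower. Kcnh3, an ELK channel of forebrain neurons, showed the largest difference of all members. It was at 0 to 110 RPM in tumours (median 9.97), against 240 and 270 RPM in cortex (log2 difference -4.57, SE 0.86, adjusted p 0.000145). Its library at 0 was EGFR wild type library 2. Kcnh1 fell by 2.86 (SE 0.85, adjusted p 0.00776), but 2 tumour libraries lay above both cortex libraries. Kcnh2, the ERG channel also known from the heart, was at 4.65 to 45.7 RPM in tumours and 34.6 and 29.3 RPM in cortex and was not called (adjusted p 0.144).

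Of the Kv1 genes 3 of 6 tested were lower, and of Kv4 2 of 3. Kcna1 and Kcna2, which form axonal channels beside the nodes, stood at medians of 50.2 and 80.0 RPM in tumours. Their cortex libraries held 225 and 199 RPM for Kcna1 and 229 and 195 RPM for Kcna2. The log2 differences were -2.15 (SE 0.61, adjusted p 0.0053) for Kcna1 and -1.59 (SE 0.47, adjusted p 0.00692) for Kcna2. Neither passed when a cortex library was left out. Kcnd2, which carries the dendritic A-type current, stood at 3.45 to 73.0 RPM in tumours and at 113 and 135 RPM in cortex, without overlap (log2 difference -2.02, SE 0.50, adjusted p 0.00187).

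Silent modifier subunits, which form channels only together with Kv2 subunits, had 7 of 8 tested members lower. Kcnf1 fell by 4.07 (SE 0.52, adjusted p 1.39e-06), at 1.49 to 72.1 RPM in tumours (median 9.26) and 196 and 168 RPM in cortex. The others lower were Kcng1, Kcng2, Kcns1, Kcns2, Kcns3 and Kcnv1. Kcng4 was not called.

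Among auxiliary subunits, all 3 cytoplasmic beta subunits of Kv1 channels were lower. Kcnab2 was the highest member of all per kilobase of exon in cortex and ranked 3 in tumours. It stood at 22.8 to 470 RPM in tumours (median 69.1), against 541 and 649 RPM in cortex (log2 difference -2.98, SE 0.52, adjusted p 6.47e-05). Kcnab1 fell by 3.37 (SE 0.67), at 1.61 to 123 RPM in tumours and 128 and 136 RPM in cortex. Of the 4 KChIP genes, whose calcium-binding proteins escort Kv4 channels, 2 fell and 2 did not pass. Kcnip4 fell by 4.13 (SE 0.54, adjusted p 2.02e-06), at 0.868 to 36.2 RPM in tumours and 113 and 116 RPM in cortex. Kcnip2 fell by 3.60 (SE 0.65), at 2.04 to 78.2 RPM in tumours and 111 and 156 RPM in cortex. Kcnmb4, the neuronal beta subunit of BK channels, fell by 2.48 (SE 0.43, adjusted p 4.96e-05), at 2.34 to 18.02 RPM in tumours and 40.7 and 40.3 RPM in cortex. Its antisense gene Kcnmb4os2 stood at 0.756 to 6.98 RPM in tumours and at 9.80 to 12.3 RPM in cortex, and whether the counting used the strand is not given in the sources used here.

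Inward rectifiers divided. Of 12 tested, 8 were lower, 1 was higher and 3 did not pass. The G-protein-gated subunits Kcnj3, Kcnj6 and Kcnj9, which carry slow inhibitory currents, were all lower, and so were Kcnj12 and Kcnj13. Kcnj9 stood at 0.434 to 100 RPM in tumours (median 10.6) and at 219 and 200 RPM in cortex (log2 difference -4.21, SE 0.70, adjusted p 3.41e-05). Kcnj4 fell by 3.84 (SE 0.78, adjusted p 0.000302), at 0.558 to 116 RPM in tumours and 170 and 180 RPM in cortex. Kcnj2, the classical Kir2.1, fell by 1.64 (SE 0.32), at 3.45 to 17.9 RPM in tumours and 29.9 and 18.1 RPM in cortex. Kcnj11, the pore of KATP channels, fell by 3.23 (SE 0.67), and its partner Abcc8 by 3.61 (SE 0.54). The other KATP pair, Kcnj8 and Abcc9, known from vessel wall cells, was not called, with log2 differences of -0.14 (SE 0.40) and -0.07 (SE 0.42).

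The K2P genes, which give the resting leak, had 4 of 10 lower, 2 higher and 4 not called. Kcnk4 fell by 3.07 (SE 0.45, adjusted p 7.99e-06), at 0.062 to 12.97 RPM in tumours and 14.1 and 18.7 RPM in cortex. Kcnk1 fell by 1.88 (SE 0.58, adjusted p 0.00993), at 5.03 to 92.6 RPM in tumours and 122 and 89.0 RPM in cortex, and did not pass without either cortex library. Kcnk3 and Kcnk12 fell as well. Of the calcium- and sodium-activated pores, Kcnma1, Kcnn1, Kcnn2, Kcnt1 and Kcnt2 were lower. Kcnma1, the BK pore known for high expression in human glioma, fell by 1.47 (SE 0.51, adjusted p 0.0209). It stood at 2.67 to 64.9 RPM in tumours, against 38.2 and 34.1 RPM in cortex, with 2 tumour libraries above both. It did not pass without either cortex library or with a term for the ranges of library numbers.

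**Figure D2:**
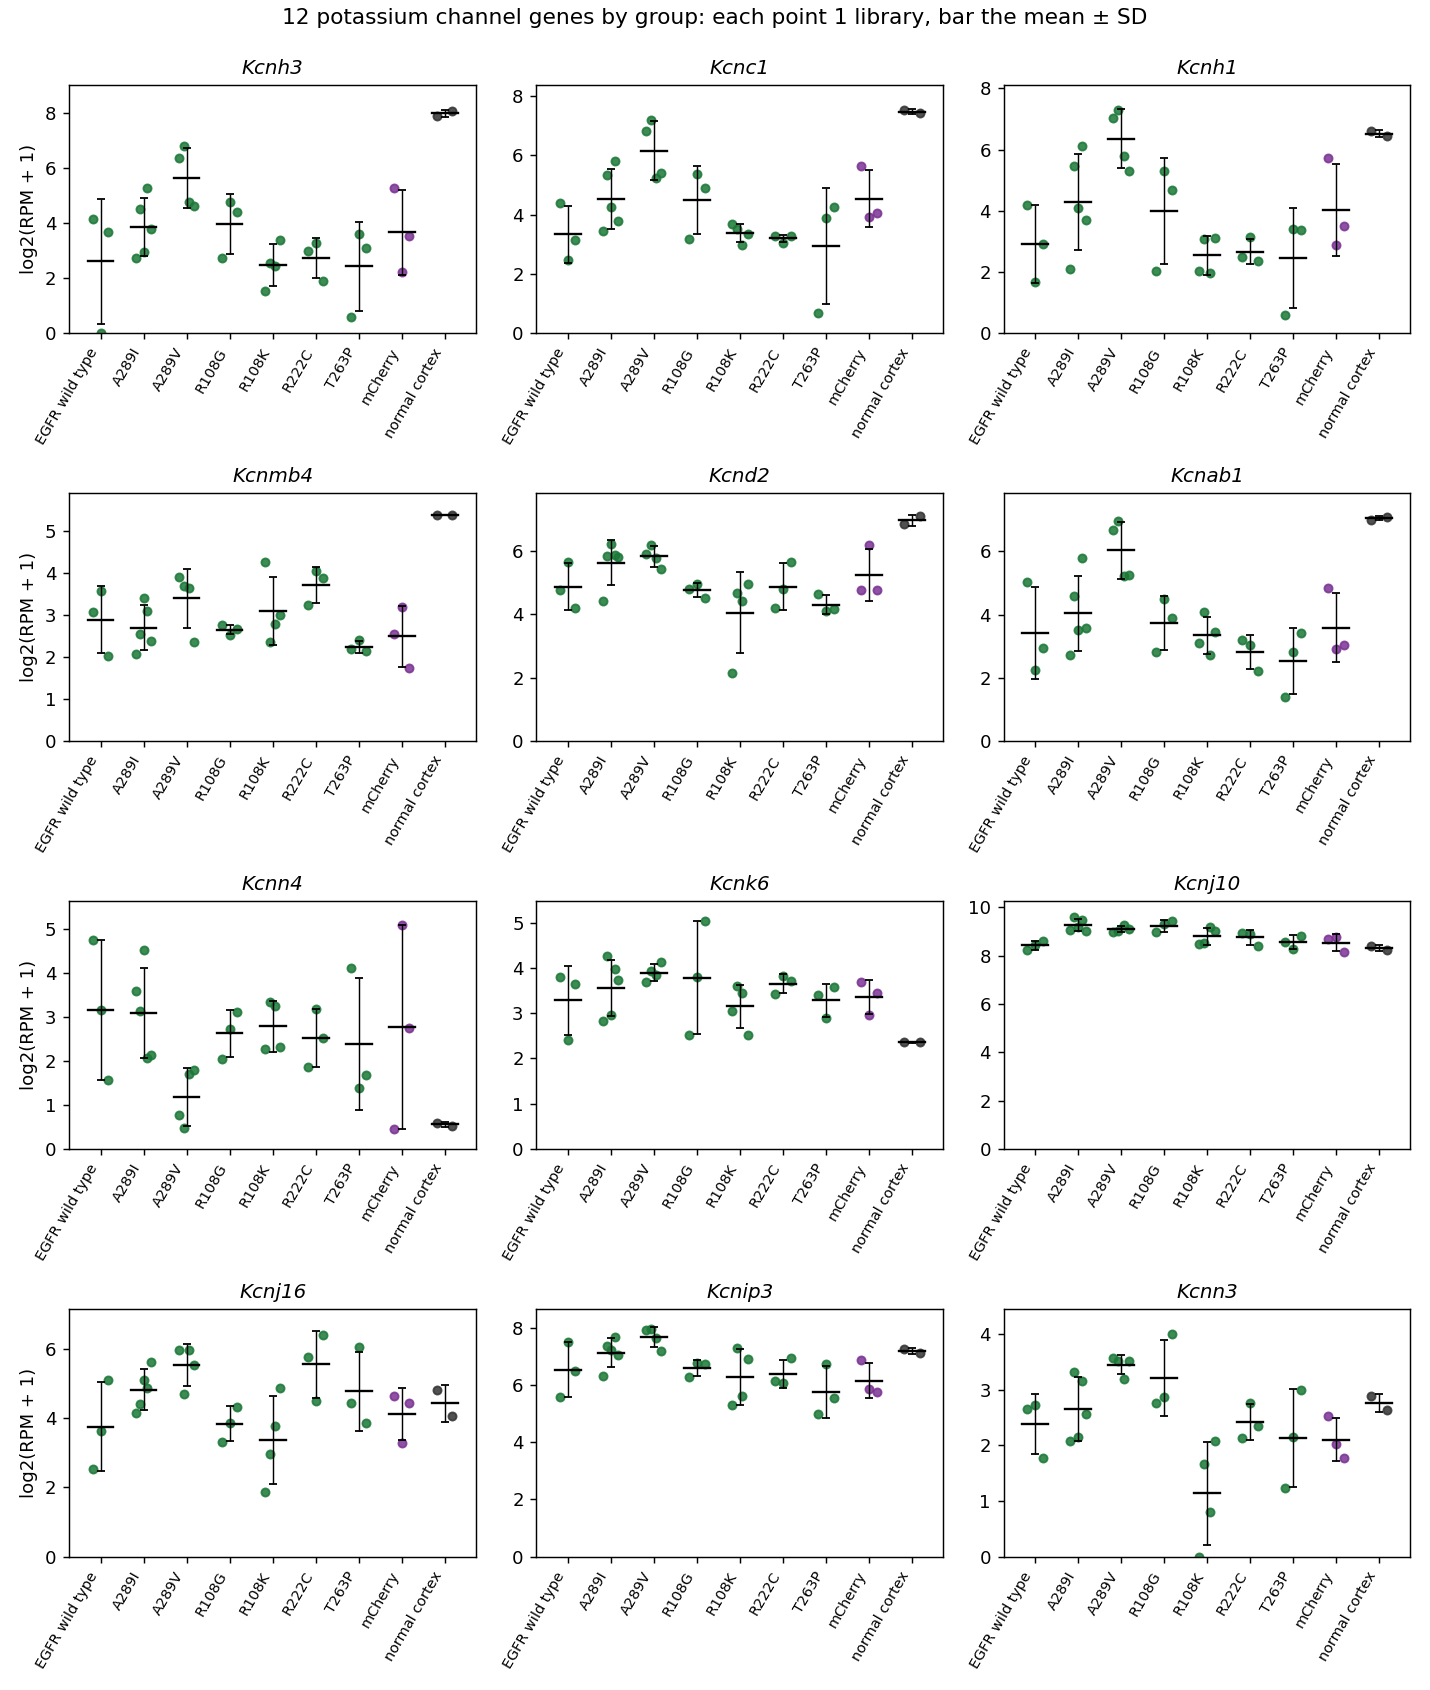
Log2(RPM + 1) of 12 genes by group, with each point 1 library and bars the mean ± SD. The first 6 genes were lower in tumours, Kcnn4, Kcnk6 and Kcnj10 were higher, and Kcnj16, Kcnip3 and Kcnn3 were not called.

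The 5 members that were higher in tumours were Kcnn4, Kcnk10, Kcnk6, Kcnq1 and Kcnj10. Kcnj10, the astrocytic Kir4.1, was the highest member per kilobase in tumours and ranked 3 in cortex. Its libraries held 540, 788, 590, 710 and 525.9 RPM in A289I, 507, 518, 625.5 and 558 RPM in A289V, and 299, 348 and 391 RPM with wild-type EGFR. R108G libraries held 500, 634 and 690 RPM, R108K 356, 372, 581 and 525 RPM, R222C 497, 481 and 336 RPM, T263P 383, 307.5 and 456 RPM, and mCherry 416, 441 and 282 RPM, against 338 and 302.3 RPM in cortex. All but 4 of the 28 tumour libraries lay above both cortex libraries. Kcnj10 also differed among the 8 tumour groups (F-test of limma, past the threshold), and mCherry tumours alone were not called against cortex. Over all tumour groups the log2 difference from cortex was 0.52 (SE 0.21, adjusted p 0.0435). The call was lost in 10 of the 30 fits that left out 1 library. In 8 of these a tumour library was left out (A289V library 3, wild-type EGFR library 3, mCherry library 1, R108G library 2 or 3, R222C library 1 or 2, or T263P library 3), with an adjusted p up to 0.0523, and without a cortex library it was 0.137 or 0.288. It was also lost in libraries 20 to 37 alone (adjusted p 0.0611) and with the neuron list as a covariate (adjusted p 0.141). Of 15 astrocyte markers, 1 was higher in tumours and 6 were lower, and their sum was 1588 to 8757 RPM in tumours and 6744 to 7252 RPM in cortex.

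Kcnn4, the intermediate-conductance calcium-activated channel of immune and dividing cells, had the largest rise, 2.01 on the log2 scale (SE 0.80, adjusted p 0.0403). It stood at 0.365 to 33.1 RPM in tumours (median 4.34), against 0.516 and 0.424 RPM in cortex. The lowest and the highest tumour library were both mCherry, at 0.365 and 33.1 RPM, and 26 of 28 tumours lay above both cortex libraries. Kcnk10, the K2P channel TREK-2, stood at 1.92 to 15.9 RPM in tumours (median 8.75) and at 2.58 and 2.26 RPM in cortex (log2 difference 1.37, SE 0.40, adjusted p 0.00614), with 27 of 28 tumours above both. Kcnk6, the K2P channel TWIK-2 known from macrophages, stood at 4.31 to 31.7 RPM in tumours (median 11.2) and at 4.13 and 4.10 RPM in cortex (log2 difference 1.14, SE 0.42, adjusted p 0.028). Kcnq1, whose channels serve epithelia and heart, was low throughout, at 0 to 6.02 RPM in tumours and 0.344 and 0.566 RPM in cortex (log2 difference 0.87, SE 0.33, adjusted p 0.0346). Its antisense gene Kcnq1ot1 stood at 0.531 to 10.9 RPM in tumours and at 2.06 to 2.55 RPM in cortex.

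None of the 5 rises passed when either cortex library was left out, where 33 to 50 falls passed without any 1 library. With edgeR on the recovered reads Kcnk10, Kcnk6 and Kcnn4 passed, and with DESeq2 all 5 and Kcne4.

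The 26 members that did not pass include channels of glia and immune cells as well as neuronal ones. Kcnj16, the Kir5.1 partner of Kcnj10, stood at 2.68 to 83.4 RPM in tumours (median 21.1) and at 26.99 and 15.6 RPM in cortex. Its log2 difference was 0.04 with a 95% interval of -1.23 to 1.31. Kcnk13, a K2P channel of microglia, stood at 8.93 to 50.0 RPM in tumours and at 18.9 and 15.7 RPM in cortex (difference 0.08, interval -0.74 to 0.90). Kcnip3, also called calsenilin, ranked 2 per kilobase among members in tumours and 9 in cortex. It held 30.5 to 244 RPM in tumours and 152 and 136 RPM in cortex (difference -0.62, interval -1.56 to 0.31). These intervals span changes in either direction, so a missed threshold does not show equal levels.

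Further members of this kind were Kcnn3 (difference -0.32, SE 0.43), Kcnq3 (-0.53, SE 0.44), Kcnip1 (-0.72, SE 0.50) and Kcnd3 (-0.77, SE 0.52). Kcna3, the Kv1.3 channel of T cells and microglia, stood at 0.383 to 8.06 RPM in tumours and 1.55 and 1.27 RPM in cortex (difference 0.35, SE 0.40). Kcnk2, the mechanosensitive TREK-1, stood at 7.82 to 98.2 RPM in tumours and 52.8 and 57.3 RPM in cortex (difference -0.81, SE 0.54). Kcna6 ranked 4 per kilobase in tumours and 15 in cortex, at 27.6 to 267 RPM in tumours and 159 and 156 RPM in cortex. Kcne4, a subunit that damps Kv1 channels, was above both cortex libraries in 19 of 28 tumours, at 0.889 to 45.6 RPM against 3.78 and 2.26 RPM, but did not pass (difference 1.36, SE 0.80, adjusted p 0.167).

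The falls were next set against the neuron markers within tumours. For each gene the slope on the mean log2 level of the 28 neuron genes was fitted over the 28 tumours, with the 8 group means in the model. The slope was positive past the threshold for 38 of 79 members, where 9.08% of all 15796 genes outside the list had one, and negative past it for none, where 1.61% did. By limma 52 members had an unadjusted p under 0.05, where 24.2% of all genes did. edgeR called no negative slope either, and DESeq2 called those of Kcne3 and Kcnn4. Both lists of neuron and channel genes come from the same libraries, and the slope describes co-variation with no direction of cause.

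The steepest slope was that of Kcnh1, 1.23 log2 units per unit of the list (SE 0.09, adjusted p 7.3e-10). Others were Kcnh3 at 1.19 (SE 0.12), Kcnj4 at 1.13 (SE 0.08), Kcnc2 at 1.07 (SE 0.10) and Kcnc1 at 0.99 (SE 0.07). Kcnt1 and Kcnj11 both stood at 0.97 (SE 0.09 and 0.07). A slope of 1 means that a channel changed in step with the average neuron marker, and the median slope of the 79 members was 0.37. Of the 48 members lower in tumours 33 had a positive slope past the threshold, of the 26 not called 5 had one (Kcng4, Kcnk9, Kcnh2, Kcnq3 and Kcna3), and of the 5 higher none.

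**Figure D3:**
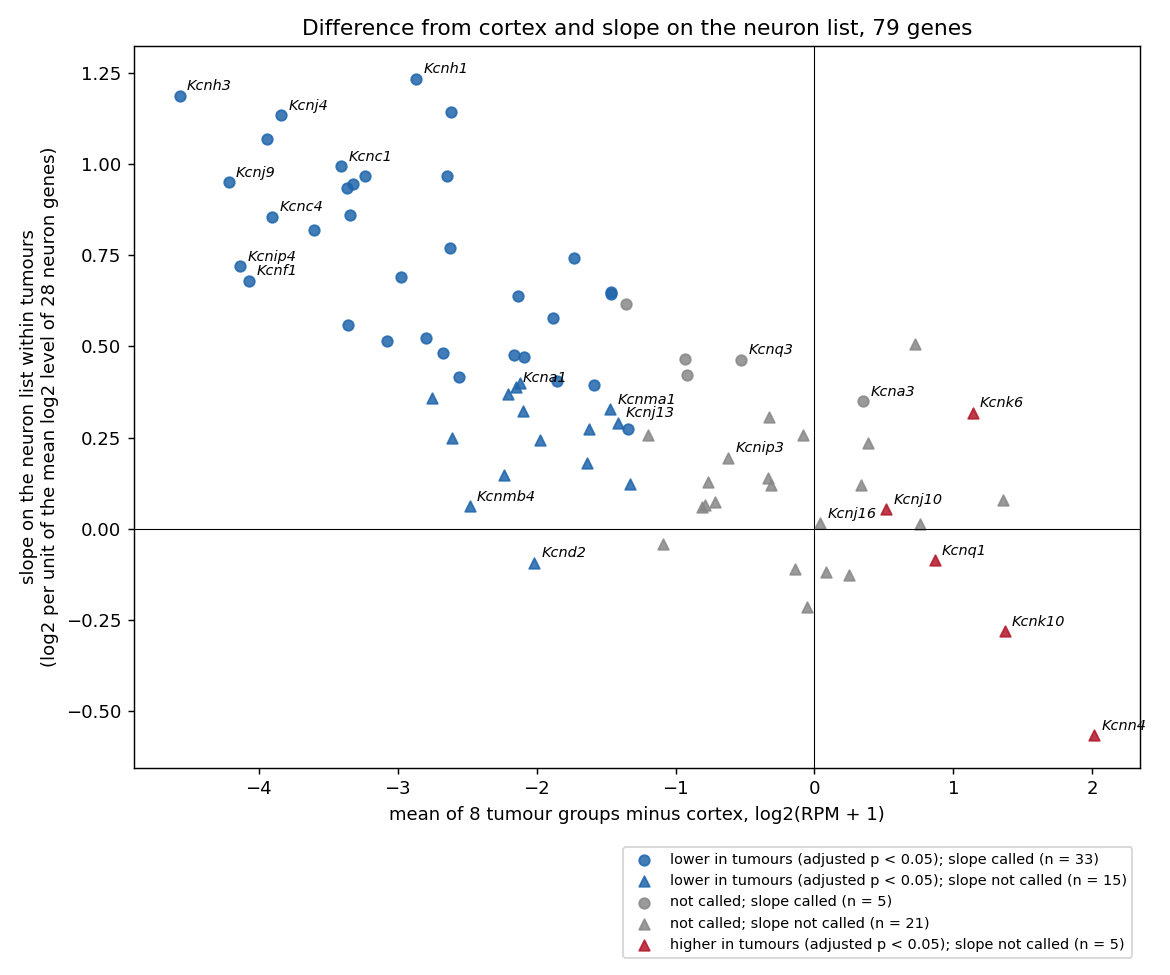
Each of the 79 tested genes by its tumour minus cortex difference in log2(RPM + 1), horizontal, and its slope on the neuron list within tumours, vertical. Circles mark slopes past the threshold (38) and triangles the others, and Kcnd2 and Kcnmb4 lie far to the left near a slope of 0.

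The other 15 members that were lower had no slope past the threshold. They were Kcnj3, Kcnq5, Kcnmb4, Kcng2, Kcna4, Kcna1, Kcnj12, Kcnh4, Kcnd2, Kcnt2, Kcnj2, Kcnn1, Kcnma1, Kcnj13 and Kcnd1. Kcnd2 had a slope of -0.09 (adjusted p 0.77) and Kcnmb4 one of 0.06 (adjusted p 0.82). Kcnmb4 was at 4.86, 8.12 and 2.34 RPM in the mCherry tumours. Kcnd2 was at 26.004, 70.9 and 26.2 RPM there. Both were highest in mCherry library 2, whose neuron sum of 1629 RPM was the lowest of the 3. In A289I it was the other way, with both lowest in library 1 (Kcnd2 20.2 RPM, Kcnmb4 3.22 RPM). Its neuron sum of 1060 RPM was the lowest of A289I.

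When the neuron list entered the comparison of tumours with cortex as a covariate, 6 members stayed lower and 3 were higher. The lower ones were Kcnd2 (-2.34, SE 0.74), Kcnmb4 (-2.26, SE 0.63), Kcnq5 (-1.72, SE 0.52), Kcng2 (-1.71, SE 0.51), Kcnf1 (-1.66, SE 0.40) and Kcnip4 (-1.58, SE 0.41). The higher ones were Kcnk6 (2.27, SE 0.55), Kcna3 (1.59, SE 0.48) and Kcnh1 (1.503, SE 0.43). The tumours lay at 2.26 to 8.15 on the list and the cortex libraries at 8.66 and 8.62, so this fit reads the slope beyond the tumours' own range. The share of all genes that passed in it is not given here.

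**Figure D4:**
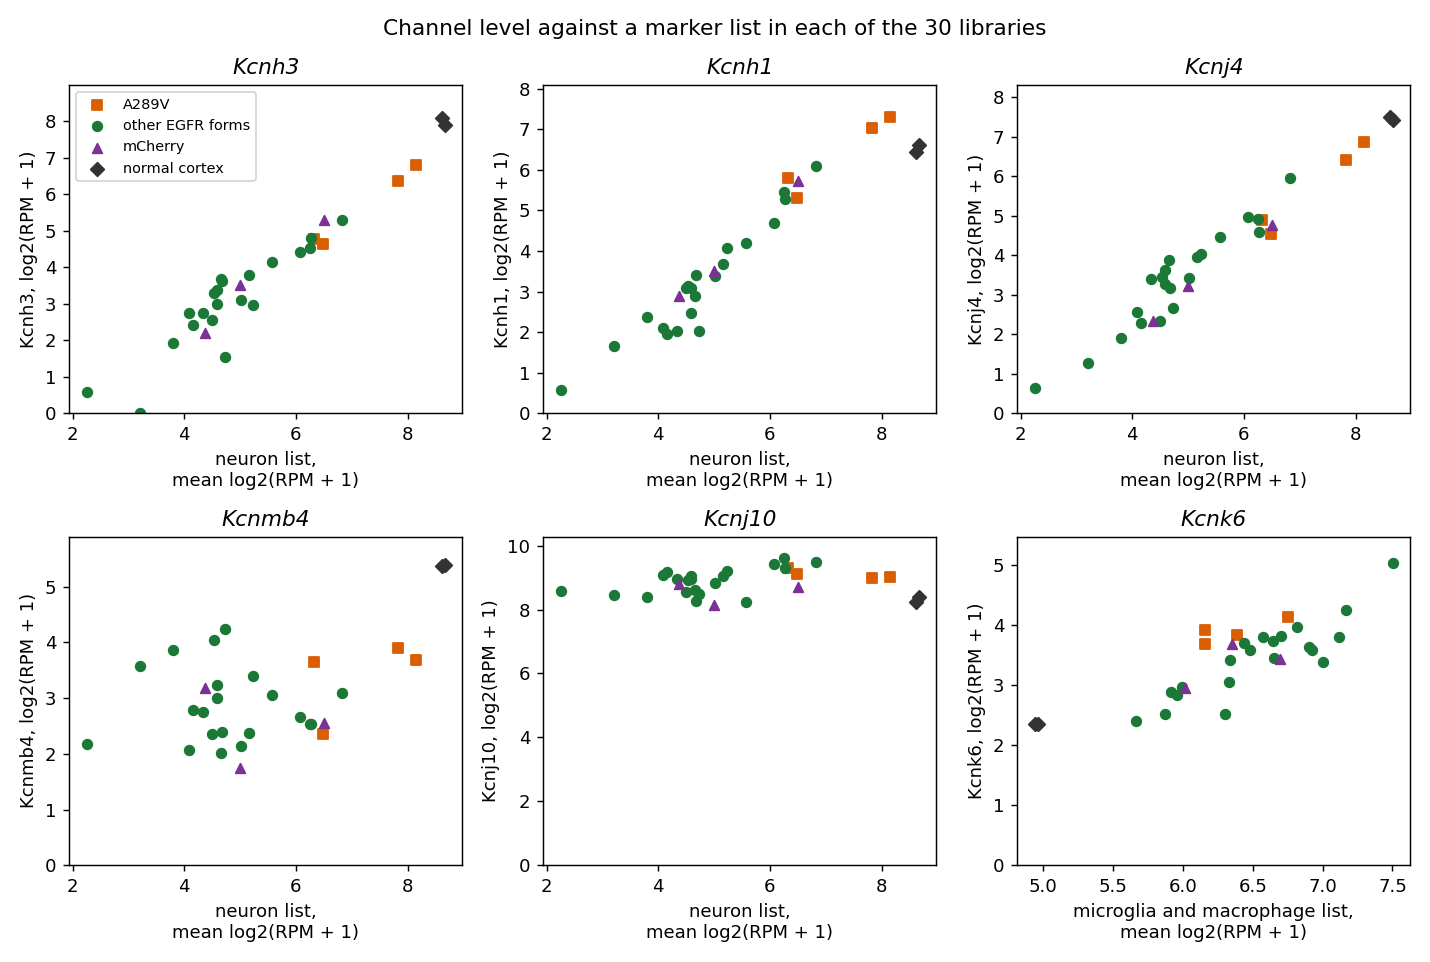
Log2(RPM + 1) of 6 genes in each of the 30 libraries against the mean log2 level of the neuron list, or of the microglia and macrophage list for Kcnk6. Kcnh3, Kcnh1 and Kcnj4 climb with the neuron list among tumours, Kcnmb4 and Kcnj10 do not follow it, and Kcnk6 climbs with the microglia and macrophage list.

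The same slopes were then fitted on 7 other marker lists, a step added after the values were seen. On the astrocyte list 29 members had a positive slope and Kcnn4 a negative one (-1.28, SE 0.34, adjusted p 0.0167), where 8.16% and 2.92% of all genes did. The astrocyte markers moved with the neuron list within tumours, with 6 of 15 having a positive slope on it past the threshold (median slope 0.52), and the part of the neuron markers in these 29 slopes was not tested. On the microglia and macrophage list Kcnk6 had a slope of 1.10 (SE 0.14, adjusted p 2.38e-05), the only member called, where 2.55% of all genes had a positive and 0.0569% a negative slope. The microglia and macrophage sum was 1528 to 5436 RPM in tumours and 701 to 755 RPM in cortex. Kcnq1 had a slope of 1.13 (SE 0.21, adjusted p 0.0234) on the endothelium and pericyte list, where 0.114% of all genes had a positive and 0.0127% a negative slope. Kcnj16 had one of 1.42 (SE 0.35, adjusted p 0.047) on the oligodendrocyte precursor list, where 0.569% were. Kcnd3 had one of -0.62 (SE 0.17, adjusted p 0.0394) on the T and NK cell list, where 0.0822% of all genes had a negative and 3.95% a positive slope. The myelin and cell cycle lists gave no call among the members, where 0.101% and 1.3% of all genes had a positive slope and 0.00633% and 0.354% a negative one. Cspg4 stands in both the precursor and the endothelium and pericyte list.

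The genes whose level was most like that of Kcnn4 over the 28 tumours were Capg (Pearson r 0.89), Pfn1 (0.86), Vasp (0.84), Scpep1 (0.82) and Frrs1 (0.82). These r describe the same libraries, which share depth and mixture of cells. Capg stood at 9.04 to 180 RPM in tumours and at 1.41 to 3.44 RPM in cortex.

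Tumours with mCherry in place of EGFR, which were among the 8 tumour groups above, showed the loss when taken alone. Set against cortex, they had 42 of 79 members lower, where 20.5% of all genes were, and none higher, where 17.8% were. The median log2 difference was -1.78. By limma 52 members had an unadjusted p under 0.05, where 47.0% of all genes did, and edgeR and DESeq2 each called Kcnk10 and Kcnn4 higher. Kcnip4 fell by 4.06 (adjusted p 7.8e-05), with 13.7, 2.52 and 5.43 RPM in mCherry tumours against 113 and 116 RPM in cortex. Kcnh1 did not pass here (adjusted p 0.067). This comparison shares both its mCherry and its cortex libraries with that of all tumours and cortex, so it is not an independent repeat.

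Among the EGFR forms, A289V had members called against mCherry. It had 8 of 79 higher, where 3.23% of all genes were, and none lower, where 1.68% were (4.91% in either direction). edgeR called none lower and DESeq2 called Kcnn4. Among them were Kcnj3, Kcnj11, Kcnj6, Kcng4, Kcna6, Kcnab1 and Kcnf1, and 49 members had an unadjusted p under 0.05, where 24.3% of all genes did. The median log2 difference over the members was 1.26. Kcnj11 stood at 41.8, 64.5, 17.8 and 13.9 RPM in A289V tumours, against 11.4, 0.988 and 2.68 RPM in mCherry tumours (log2 difference 2.73, SE 0.70, adjusted p 0.0384). Kcnab1 stood at 101, 123, 36.4 and 37.4 RPM in A289V tumours, against 27.6, 6.48 and 7.15 RPM in mCherry tumours (difference 2.44, SE 0.69, adjusted p 0.0466). Kcnj3, of smallest p, stood at 63.5, 98.9, 50.0 and 57.2 RPM in A289V tumours, against 39.1, 4.06 and 13.4 RPM in mCherry tumours (difference 2.21, SE 0.54, adjusted p 0.0349). In these 3 genes every A289V library lay above every mCherry library.

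Of the 28 neuron genes, 4 were called higher in A289V than in mCherry tumours and 0 lower, with a median log2 difference of 2.07. Summed neuron markers were at 4958 to 16662 RPM in A289V tumours, against 1629 to 5260 RPM in mCherry tumours, so the ranges overlapped. A289V libraries 1 and 2 held 12921 and 16662 RPM of them. Myelin markers summed to 4624 to 8260 RPM in A289V tumours, against 1657 to 2683 RPM in mCherry tumours, and the cell cycle list to 680 to 1439 RPM in A289V tumours, against 1522 to 2577 RPM in mCherry tumours. None of the 8 passed with the neuron list as a covariate, without A289V library 1 or library 2, without mCherry library 2 or library 3, or in edgeR, whereas DESeq2 called 22 members higher and Kcnn4 lower. Without mCherry library 1, 25 passed. Shares of all genes under these alternatives are not given here. Kcna6 had no slope on the neuron list (0.06, adjusted p 0.83), and stood at 167, 175, 174 and 85.5 RPM in A289V tumours, against 37.5, 78.1 and 27.6 RPM in mCherry tumours (difference 1.71, SE 0.48, adjusted p 0.0446).

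The other forms gave no call among the members by limma or edgeR. Unadjusted p under 0.05 were found for 4 members in A289I, 1 with wild-type EGFR, 5 in R108G, 11 in R108K, 6 in R222C and 8 in T263P, and for 3 with the mean of the 7 forms, each of 79. At that threshold stood 10.96% of all genes in A289I, 2.70% with wild-type EGFR, 8.40% in R108G, 9.99% in R108K, 7.10% in R222C and 5.55% in T263P, and 6.69% for the mean. The members' share was below that of all genes in A289I, with wild-type EGFR, in R108G and for the mean, close to it in R222C, and above it in R108K and T263P. By adjusted p, all genes called were 0.607% in A289I, 0% with wild-type EGFR, 0.0379% in R108G, 0.0695% in R108K (0.0506% higher and 0.019% lower), 0% in R222C and 0.00632% in T263P, and 0.0379% for the mean. DESeq2 called Kcna6 and Kcnj10 in A289I and no member in the other forms. The smallest p in A289I was that of Kcnj10 (difference 0.74, SE 0.21, adjusted p 0.116), and Kcna6 followed (1.51, SE 0.46, adjusted p 0.149). Kcna6 also had the smallest p in R108G (1.61, SE 0.51, adjusted p 0.348), Kcnd3 in R108K (-1.53, SE 0.54, adjusted p 0.338), Kcnip1 in R222C (1.55, SE 0.56, adjusted p 0.549) and with wild-type EGFR (1.19, SE 0.56, adjusted p 1), and Kcnj14 in T263P (1.17, SE 0.48, adjusted p 0.877). Single libraries moved the last 3 of these values by over 1.5 times. Kcnj14 in T263P was at 0.23 without T263P library 2 and at up to 1.66 without another library. Kcnip1 in R222C was at 0.97 without mCherry library 3 and at up to 2.14 without mCherry library 2. With wild-type EGFR, Kcnip1 was at 0.61 without mCherry library 3, at 0.72 without wild-type EGFR library 2 and at up to 1.78 without mCherry library 2. These comparisons share the 3 mCherry libraries.

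Any difference among the 8 tumour groups was found for 28 of 79 members, where 10.3% of all genes had one (F-test of limma). Among the smallest p were those of Kcnf1 (F 7.85, adjusted p 0.0098), Kcnj6 (F 6.05, adjusted p 0.0156) and Kcnn3 (F 5.53, adjusted p 0.0189). Kcnj11, Kcnk3, Kcnj9 and Kcnab1 came next. Kcnf1 stood at 71.9, 72.1, 30.2 and 18.7 RPM in A289V tumours, against 15.7, 10.9 and 7.77 RPM in mCherry tumours, and the groups did not overlap. No member passed without A289V libraries 1 and 2 or with the neuron list as a covariate, and without A289V library 1 or library 2 alone 2 passed. DESeq2 called 52 and edgeR 35, for which shares of all genes are not given here.

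Both Kcnmb2 and Kcnj14 stood high in a single library. Kcnmb2, a beta subunit that inactivates BK channels, was at 155 RPM in R108K library 2 (Poisson 95% interval 149 to 162, counting error only), against 0 to 2.56 RPM in the other 27 tumours and 2.83 to 3.09 RPM in cortex. Of the 16 tested genes within 1 Mb of it on chromosome 3, Kcnmb2 included, no other was highest in that library, and Phc3 and Usp13 were lowest there. Kcnj14, the inward rectifier Kir2.4, was at 14.5 RPM in T263P library 2 (interval 11.9 to 17.5), against 0.356 to 2.41 RPM in the other tumours. The neighbouring Grwd1, on the same strand, was at 272 RPM there and at 23.8 to 69.1 RPM in the other tumours. Of the 76 tested genes within 1 Mb of Kcnj14 on chromosome 7, it, Grwd1 and Atf5 were highest in that library, the last at 151 RPM against up to 142 RPM elsewhere. Rras, Dkkl1 and Plekha4 were lowest there, and Hrc and Fut1 were at 0 RPM, as in at least 1 other tumour. The shares of all genes highest or lowest in these 2 libraries were not counted. Kcnmb2 and Kcnj14 were named after their values were seen.

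**Figure D5:**
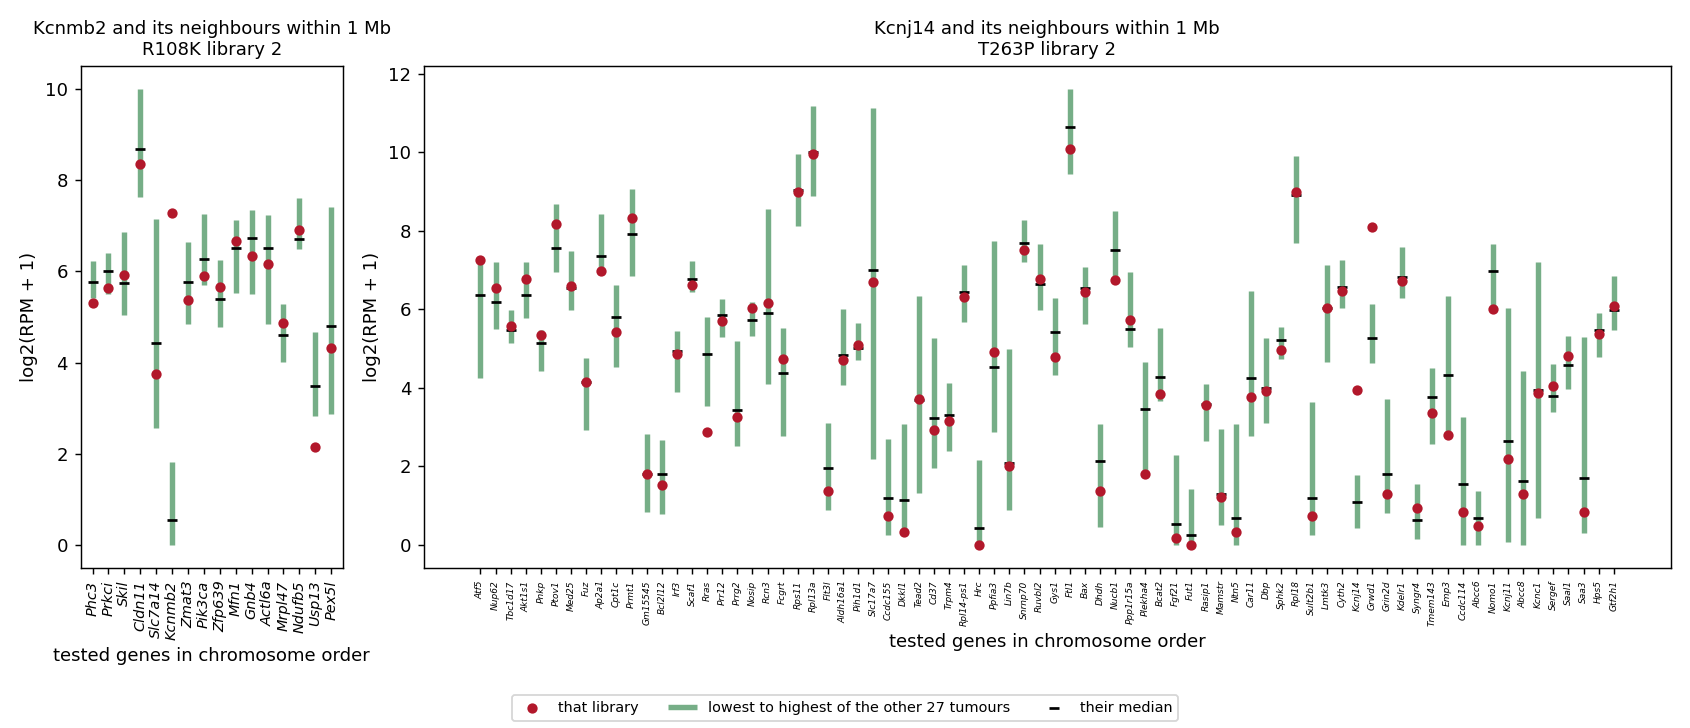
Log2(RPM + 1) of the tested genes within 1 Mb of Kcnmb2 and of Kcnj14, in chromosome order, with the library that was high for the channel as red points and the range and median of the other 27 tumours as bars and ticks. Kcnmb2 stands far above the bar in R108K library 2, and Kcnj14 and Grwd1 stand above theirs in T263P library 2.

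Related ion transport genes were counted in the comparison of tumours with cortex, where 24.5% of all genes were lower and 22.9% higher. Of 8 tested potassium channel partners outside the name pattern 6 were lower, among them Dpp10, a Kv4 partner, at -3.11 (SE 0.75). Sodium channels had 7 of 11 lower, with Scn2a1 at 6.64 to 219 RPM in tumours and 260 to 261 RPM in cortex (difference -3.10, SE 0.55). Calcium channel pores had 5 of 9 lower and Cacna1s higher, and HCN pacemaker channels 2 of 4 lower. Of 12 pump and cotransporter genes 6 were lower and 2 higher. Slc12a5, the neuronal potassium chloride exporter, fell by 3.94 (SE 0.80), while Slc12a4 and Slc12a7, its relatives in other cells, rose by 2.54 (SE 0.40) and 2.38 (SE 0.53).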

How the data were processed

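Stranded polyadenylated RNA libraries (TruSeq) were made from bulk tissue, per the labels' protocols. The submitters' processing notes name FastQC, STAR 2.5.0a, mm10 and DESeq2 1.20.0 without their roles. The deposited signal is 1 value per gene and library. All values came to whole reads within 0.05 of a read once divided by 1 constant per library, so they are size-factor-normalised counts, although the authors named them RPM. The planned design assumed RPM, so the log-scale test was kept. Values were divided by 10.2638, the same for every library, and are called RPM here. The libraries' deposited totals were not equal. On the scale of that divisor they were 11.9 and 12.0 in cortex libraries 1 and 2. In tumours they ran from 9.31 (mCherry library 1) to 11.3 (A289V library 2). The same share of a library's reads thus gives a higher RPM in cortex than in any tumour library.

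A gene entered the tests if 3 or more libraries reached 1 RPM, which left 15824. Means of the 9 groups were estimated from log2(RPM + 1) of the 30 libraries with limma 3.58.1 (R 4.3.3), using a robust eBayes trend. Its two-sided p-values were adjusted after Benjamini-Hochberg over every gene that entered, with a threshold of 0.05. Fold changes on this scale understate those of low genes. edgeR 4.0.16 and DESeq2 1.42.0 were run on the recovered reads as alternatives, beside other pseudocounts, filters, scaling, library weights, terms for ranges of library numbers, a neuron covariate and libraries left out in turn. Scripts were tested on simulated data. Positions came from GENCODE M21 on mm10. Named genes were, by rule, the largest differences without overlap, the smallest differences not called, the smallest p of each other comparison, the steepest slopes and a list of channels of known cell types. The members, lists and rule were chosen with earlier results of these data known. Kcnk10, Kcnq1, Kcnmb2, Kcnj14, Kcnh6 and others outside the rule were added after their values were seen. Figures used Python 3.11.15 and matplotlib 3.10.9. Some members count in the totals but are not reported here by name.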

Additional observations from a re-analysis of the deposited data

Results flagged for a closer look

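Gaps of 1 library from the rest of its group, tested on the log2 scale for the named members in groups of 4 or 5 libraries, were found 6 times among 141 tests, and chance flags about 1 group in 20. Kcnmb2 was at 155 RPM in R108K library 2, against 0 to 0.226 RPM in the other R108K libraries. Kcna1 was at 19.1 RPM in A289I library 1, against 82.1 to 139 RPM in the others, and Kcnd2 was at 20.2 RPM there, against 55.0 to 73.0 RPM. That library also had 1060 RPM of summed neuron markers, the lowest of A289I. Neither Kcna1 nor Kcnd2 had a slope on the neuron list past the threshold, and a link of these gaps to neuron markers was not tested. Kcna6 was at 85.5 RPM in A289V library 4, against 167 to 175 RPM in the others, and Kcnmb4 at 4.14 RPM there, against 11.5 to 13.9 RPM. Kcnn3 was at 8.14 RPM in A289V library 3, against 10.4 to 10.9 RPM.

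Kcnn3, a small-conductance calcium-activated channel, lay above both cortex libraries in all A289V libraries (10.9, 10.4, 8.14 and 10.4 RPM) and below both in all R108K (0, 2.17, 0.755 and 3.21 RPM) and mCherry libraries (4.74, 3.07 and 2.41 RPM), against 6.36 and 5.23 RPM in cortex. The F-test among the 8 tumour groups gave an adjusted p of 0.0189.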

How the results depend on the processing

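The 48 falls numbered 33 to 50 without any 1 library and 6 with the neuron covariate, where 66.7% of the called members were lower, against 90.6% without it and 84.1% (library weights) to 100% (without either cortex library) under the other alternatives. That covariate turned the differences of Kcnj4 (0.18), Kcnc1 (0.12) and Kcnk1 (0.17) positive. The 5 rises numbered 11 with library weights, 2 and 1 with terms for 2 and 3 number ranges, 3 in edgeR, 3 with the covariate, 3 in libraries numbered 20 to 37 alone and 0 to 5 without any 1 library. The 42 falls in mCherry tumours numbered 26 with 3 ranges, 4 with the covariate and 24 to 45 without any 1 library (24 without cortex library 1), and the 0 rises 1 at a pseudocount of 0.1 RPM, 1 with a filter of 5 RPM, 4 with weights, 2 in edgeR, 2 in DESeq2, 3 with the covariate and 0 to 2 without any 1 library. A289I had 3 with weights, 2 in DESeq2 and 0 to 1 without any 1 library. The 8 calls of A289V numbered 1 at the lower pseudocount, 2 without a filter, 40 with weights, 23 in DESeq2 (1 of them lower), 0 to 25 without any 1 library, and 0 with either range term, in edgeR, without A289V libraries 1 and 2, without 3 libraries of high Met and with the covariate. The 28 of the F-test numbered 17 at the lower pseudocount, 17 without a filter, 57 with weights, 16 with 3 ranges, 52 in DESeq2, 0 without A289V libraries 1 and 2, 0 with the covariate and 2 to 36 without any 1 library (2 without A289V library 1 or 2, and 18 without each of the R222C libraries). The 38 positive slopes numbered 58 without group means, and 34 to 39 without any 1 library when group means were kept. Negative slopes, 0 in the main fit, numbered 2 without group means, 2 with weights and 2 in DESeq2. They numbered 1 without the high Met libraries and 0 to 1 without any 1 library. These counts are of members alone, without the shares of all genes under each alternative, and the cause of these shifts was not tested. No paired analysis was possible because the library numbers are not shared between groups.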
